A study of Homo sapiens with 4 samples.

Results

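Myocardin, its transcriptional partners and the smooth muscle genes they are known to control were followed by RNA-seq in NT2 (NTERA-2) cells, a line derived from a human embryonal carcinoma. The set holds 10 of the 62696 genes in the count tables: MYOCD, which encodes myocardin, SRF, MRTFA, MRTFB, and the contractile genes ACTA2, TAGLN, CNN1, MYH11, MYL9 and LMOD1. Members were found by their symbol, and all 10 had a row in each library. They were brought together because MYOCD was about 16 times as abundant in each library labelled HYDIN2 knockdown as in the empty vector library, and the question was whether targets of its partner SRF followed. The members were thus chosen by MYOCD levels measured in this contrast, so all of their values in it are a description and carry no test. The series compared 1 library of NT2 cells with an empty vector, labelled wild type, with 3 libraries labelled as a knockdown of HYDIN2, numbered replicates 1 to 3. Both groups were cultured in the same serum-containing medium, and their total RNA was cleared of ribosomal RNA before strand-specific libraries were made. How the knockdown was made, its time course, and whether replicates came from different cultures or from 1 line are not given in the labels, so the spread between them may be technical.

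Myocardin is a transcriptional coactivator of heart and smooth muscle. It does not bind DNA itself but attaches to SRF, a MADS-box factor that sits on CArG boxes, short A- and T-rich elements in the promoters of contractile, cytoskeletal and immediate early genes. MRTFA and MRTFB are broadly expressed relatives of myocardin whose entry into the nucleus is controlled by monomeric actin, and ternary complex factors such as ELK1 compete with this family for SRF. Forced expression of myocardin is known to switch on smooth muscle genes in several kinds of non-muscle cell.

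CArG boxes are the sequences that link these genes, so the promoters that held them are shown first. The box was searched for on both strands in RefSeq promoter windows on GRCh38.p14, each 300 bases long, from 250 bases before a gene's start to 50 after it. An exact box was present in 454 of 35116 windows (1.29%), and an exact box or one with a single G or C among its inner letters in 2854 (8.13%). Of the 10 genes, 6 had a window. One start of SRF had exact boxes, and one start of ACTA2 had boxes with 1 inner G or C. No box of either kind lay in the windows of CNN1, LMOD1, MRTFA or MRTFB, which says only that these letters are not in those windows. The 250 bases before the start are printed for SRF and ACTA2, and also for ACTG1 and LPP, a cytoplasmic actin and a focal adhesion protein from the gene lists below that had an exact box and differed at least 2-fold from the control in every labelled knockdown library. Capitals mark the boxes.
SRF, chr6:43171019-43171268, plus strand: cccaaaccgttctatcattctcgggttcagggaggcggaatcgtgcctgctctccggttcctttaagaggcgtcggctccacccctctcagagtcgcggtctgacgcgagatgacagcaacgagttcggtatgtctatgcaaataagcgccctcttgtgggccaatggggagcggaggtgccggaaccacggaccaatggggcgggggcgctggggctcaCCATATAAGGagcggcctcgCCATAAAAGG
ACTA2, chr10:88952774-88953023, minus strand: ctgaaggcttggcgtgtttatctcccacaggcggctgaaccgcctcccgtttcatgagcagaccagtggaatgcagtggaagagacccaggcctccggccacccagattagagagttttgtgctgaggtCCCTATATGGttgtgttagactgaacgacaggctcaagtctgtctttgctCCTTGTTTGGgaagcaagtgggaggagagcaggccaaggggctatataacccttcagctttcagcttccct
ACTG1, chr17:81512800-81513049, minus strand: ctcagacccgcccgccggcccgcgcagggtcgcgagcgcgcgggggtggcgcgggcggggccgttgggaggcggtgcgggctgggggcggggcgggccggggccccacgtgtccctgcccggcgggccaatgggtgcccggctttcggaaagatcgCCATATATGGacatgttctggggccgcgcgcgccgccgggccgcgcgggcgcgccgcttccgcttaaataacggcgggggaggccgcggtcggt
LPP, chr3:188212462-188212711, plus strand: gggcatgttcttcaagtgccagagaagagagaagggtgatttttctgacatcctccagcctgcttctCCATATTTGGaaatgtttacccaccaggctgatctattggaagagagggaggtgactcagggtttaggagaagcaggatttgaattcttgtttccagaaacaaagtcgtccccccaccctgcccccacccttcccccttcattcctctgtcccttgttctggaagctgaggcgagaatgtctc
Counted from the start, the SRF boxes CCATATAAGG and CCATAAAAGG began at -30 and -10. The ACTA2 boxes CCCTATATGG and CCTTGTTTGG began at -121 and -71. The ACTG1 box CCATATATGG began at -94 and the LPP box CCATATTTGG at -183. The starts used for ACTA2, ACTG1 and LPP lay downstream of the outermost annotated start of each gene. A match is a description of the sequence and not evidence of binding.

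Library totals ran from 25181737 counts (the empty vector library, the control below) to 62904698 (replicate 1). Levels are in CPM, counts scaled to a common library size, and differences are log2 CPM differences from the control with a prior count of 2. A gene was tested against the threshold if its mean CPM over both groups was at least 1, and called if all 3 labelled knockdown libraries differed at least 2-fold one way. HYDIN2 (ENSG00000276975.4), the targeted gene, had 12 counts in the control and 150, 112 and 11 in replicates 1, 2 and 3. Scaled for depth, it was higher in replicates 1 and 2, by ratios of 4.82 (95% counting interval 2.11 to 13.5) and 3.75 (1.62 to 10.7). In replicate 3 the interval of the ratio (0.704) included 1. HYDIN2 RNA thus went against the direction of the label in replicates 1 and 2, and no decrease was detectable in replicate 3. The count columns also carry names unlike the sample labels, as given with the processing below. The cause was not tested, and the libraries are called labelled knockdown throughout. Replicates 1 and 2 were nearly alike, with Pearson's r of 0.996 across 15880 tested genes, while replicate 3 stood apart from them (r of 0.931 and 0.928) about as far as the control did (0.941 and 0.946). These correlations are across genes, which are not independent replicates. Values without replicate 3 are given beside those it moved most.

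MYOCD was far higher in every labelled knockdown library, and its level hardly varied among them. SRF was within 1.26-fold of the control in each, MRTFA lay just under 2-fold higher in all of them, and MRTFB passed 2-fold in replicate 3 alone. Among the contractile genes, none of the 4 that were tested was called. Of the 10 members, 8 were abundant enough to be tested. MYOCD, whose rise chose the set, was the only member called higher and 0 were called lower. By the same rule 580 of 15880 tested genes (3.65%) were higher and 432 (2.72%) lower. Any difference above the control, however small, was seen in all labelled knockdown libraries for 5 of the 8 tested members (MYOCD, MRTFA, MRTFB, TAGLN and MYL9), against 30.1% of all tested genes. MYOCD is among the 5 by the choice of the set. The reverse held for 0 of the 8 tested members, against 34.2%. ACTA2, CNN1 and SRF lay on both sides of the control.

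**Figure D1:**
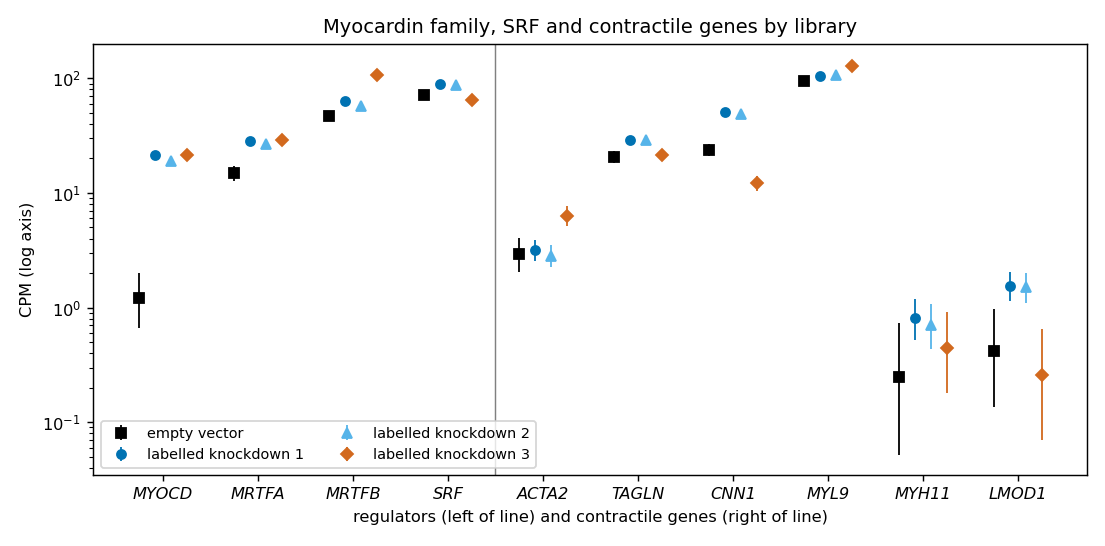
Levels of the 10 genes in CPM on a log axis, 1 symbol per library, with bars for the 95% counting interval. MYOCD sits at 1.21 CPM in the control and between 18.9 and 21.5 CPM in the labelled knockdown libraries, while CNN1 is higher in replicates 1 and 2 and lower in replicate 3, and LMOD1 is higher in replicates 1 and 2.

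MYOCD (ENSG00000141052.18, GRCh38 chr17:12665890-12768949, plus strand) had 29 counts in the control and 1339, 1129 and 668 in replicates 1, 2 and 3. These were 1.21 CPM (counting interval 0.668 to 2.01) against 21.5, 18.9 and 21.4 CPM, a mean of 20.6 ± 1.46 CPM (SD, n = 3). The groups did not overlap, where 30.1% of all tested genes were above the control in each library and 34.2% below it. Replicate 2 had 0.879 (0.785 to 0.985) and replicate 3 had 0.994 of the level in replicate 1. The ratios to the control were 17.8 (10.6 to 32.4), 15.7 (9.33 to 28.5) and 17.7 (10.5 to 32.3), and the mean log2 difference was 4.04 ± 0.10. Ordered by the smallest of its 3 differences, MYOCD ranked 3 of 15880 tested genes, which restates how it was chosen. The width of the intervals came from the 29 control counts. With length and GC trends removed the mean log2 difference was 3.44, and MYOCD was still called.

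MRTFA (ENSG00000196588.21, chr22:40410281-40636702, minus strand) encodes the actin-regulated relative of myocardin also known as MKL1. It stood at 14.9 CPM in the control and at 28.4, 26.5 and 28.7 CPM in the labelled knockdown libraries. All 3 were higher, by ratios of 1.90 (1.62 to 2.25), 1.78 (1.51 to 2.10) and 1.92 (1.61 to 2.30), so that MRTFA missed the 2-fold threshold in each. At a threshold of 1.5-fold, MYOCD and MRTFA were the 2 members that passed, beside 10% of all tested genes. MYOCD was sure to pass by the choice of the set. MRTFA-AS1, on the opposite strand within MRTFA, had 2, 17, 22 and 71 counts, against 358, 1768, 1583 and 896 for MRTFA. MRTFB (ENSG00000186260.17, chr16:14071321-14266773, plus strand), the closest relative of MRTFA, had 46.7 CPM in the control and 63.5, 57.7 and 107 CPM in replicates 1, 2 and 3. Its ratios were 1.36, 1.23 and 2.29, so replicate 3 stood above the other libraries. Without replicate 3 the mean log2 difference of MRTFB was 0.33. With trends of gene length and GC content removed, its mean log2 difference went from 0.65 to 0.02.

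SRF (ENSG00000112658.8, chr6:43171299-43181507, plus strand), the DNA-binding partner of the family, differed little from the control. It had 71.1 CPM in the control and 89.4, 86.7 and 64.4 CPM in replicates 1, 2 and 3. Replicates 1 and 2 were higher by ratios of 1.26 (1.16 to 1.36) and 1.22 (1.13 to 1.32), and replicate 3 was lower at 0.906 (0.826 to 0.994). The groups overlapped, with a mean log2 difference of 0.16 ± 0.26.

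Per kilobase of merged exons, MYOCD remained the least abundant member of its family. Its level was 0.136 CPM per kb in the control and 2.42, 2.13 and 2.41 in the labelled knockdown libraries. The sum over MYOCD, MRTFA and MRTFB was 5.24 CPM per kb in the control and 10.6, 9.67 and 13.2 in replicates 1, 2 and 3. Myocardin transcripts made up 2.60% of that sum in the control and 22.9%, 22.0% and 18.2% in the labelled knockdown libraries. In the control the order of all 10 genes per kb was MYL9 (33.8), SRF (16.9), CNN1 (8.25), TAGLN (5.27), MRTFB (2.82), MRTFA (2.28), ACTA2 (0.980), MYOCD (0.136), LMOD1 (0.105) and MYH11 (0.0155). The counting intervals of MRTFB and MRTFA overlapped in that order, as did those of MYOCD and LMOD1 and of LMOD1 and MYH11. The exon lengths merge all annotated isoforms, so they may exceed the transcripts made in these cells. They were 16578 bases for MRTFB, 6533 for MRTFA and 8875 for MYOCD, where the longest transcripts had 8799, 4505 and 8466. The excess was smallest for MYOCD, so its share of the family sum would be lower by longest transcript.

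The contractile genes come next, beginning with those that define smooth muscle. In bulk RNA, more cells of a type and more RNA per cell cannot be told apart. CNN1 (ENSG00000130176.8, chr19:11538717-11550323, plus strand) encodes calponin, an actin-binding regulator of the smooth muscle myosin ATPase. Its level was 23.8 CPM in the control, 50.9 and 49.2 CPM in replicates 1 and 2 and 12.1 CPM in replicate 3. Replicates 1 and 2 were thus higher by 2.14 (1.88 to 2.43) and 2.06 (1.82 to 2.35), and replicate 3 lower at 0.509 (0.422 to 0.614). Between labelled knockdown libraries, replicate 3 had 0.238 (0.204 to 0.277) of the level in replicate 1 and 0.247 (0.211 to 0.287) of that in replicate 2. By log2 values with the prior count, CNN1 was the only tested member at least 2-fold below both, where 13.1% of all tested genes were. By that measure 0 were at least 2-fold above both, against 6.2%. ACTA2 lay at the threshold, with ratios of replicate 3 to replicates 1 and 2 of 2.00 and 2.25 before the prior count. The mean log2 difference of CNN1 was 0.39 ± 1.18 over 3 libraries and 1.03 without replicate 3. CNN1 was then called higher, beside 9.06% of all genes tested then (5.97% were called lower, and 0 members).

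LMOD1 (ENSG00000163431.13, chr1:201896452-201946588, minus strand) encodes leiomodin, which nucleates actin filaments in smooth muscle. It had the same order of libraries at far lower counts: 10 in the control, 96 and 90 in replicates 1 and 2 and 8 in replicate 3. These were 0.417, 1.54, 1.51 and 0.256 CPM. The ratios were 3.70 (1.48 to 11.9), 3.62 (1.44 to 11.7) and 0.615 (0.122 to 2.86), so the difference of replicate 3 from the control was not detectable at this depth. Its ratio to replicate 1 was 0.166 (0.0435 to 0.454). The mean log2 difference of LMOD1 was 0.97 ± 1.38 over 3 libraries and 1.74 without replicate 3, and it was below the abundance needed for a call.

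ACTA2 (ENSG00000107796.13, chr10:88935074-88991339, minus strand), the smooth muscle alpha-actin, showed another order of libraries. It had 70 counts in the control and 197, 168 and 198 in replicates 1, 2 and 3, or 2.92, 3.16, 2.81 and 6.34 CPM. Replicates 1 and 2 lay on either side of the control and replicate 3 was higher by 2.17 (1.46 to 3.29). The mean log2 difference was 0.39 ± 0.63, and -0.01 without replicate 3. ACTA2 counts are uncertain, because its coding sequence resembles that of other muscle actins, and because FAS and STAMBPL1 overlap it on the opposite strand. The strand setting of the counting is not given in the sources used here. FAS itself had 140, 898, 827 and 290 counts and STAMBPL1 126, 488, 479 and 138 in the control and replicates 1, 2 and 3.

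TAGLN (ENSG00000149591.17, chr11:117199321-117204782, plus strand) encodes transgelin, an actin-binding protein of smooth muscle and a target of myocardin. It had 20.7 CPM in the control and 28.7, 28.9 and 21.5 CPM in replicates 1, 2 and 3. The ratios were 1.39 (1.21 to 1.61), 1.40 (1.22 to 1.62) and 1.04 (0.880 to 1.23), a small excess in replicates 1 and 2 and none detectable in replicate 3. MYL9 (ENSG00000101335.10, chr20:36541484-36551447, plus strand), a regulatory light chain of smooth muscle and non-muscle myosin, was the most abundant member per kb in the control. Its levels were 95.3 CPM in the control and 105, 108 and 129 CPM in replicates 1, 2 and 3, with a mean log2 difference of 0.25 ± 0.16. MYH11 (ENSG00000133392.18, chr16:15703172-15857033, minus strand), the smooth muscle myosin heavy chain and the most specific marker of that lineage, was close to the detection limit. It had 6 counts in the control and 50, 42 and 14 in replicates 1, 2 and 3, or 0.250, 0.803, 0.704 and 0.448 CPM. Each ratio's interval included 1 (for replicate 1, 0.980 to 16.6), and MYH11 was not tested. PCSK7 overlaps TAGLN, DLGAP4-AS1 overlaps MYL9 and NDE1 overlaps MYH11 on the opposite strand, with the same limit as for ACTA2. PCSK7 had 284, 1132, 963 and 684 counts, in the range of the 496, 1789, 1728 and 671 of TAGLN. NDE1 had 382, 1044, 895 and 347 counts, far more than MYH11 in every library.

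Set side by side, the 4 tested contractile members had a median log2 difference of 0.36, and of 0.31, 0.33 and 0.24 in replicates 1, 2 and 3. The median for replicate 3 covers opposite differences, with CNN1 at -0.97, TAGLN at 0.06, MYL9 at 0.43 and ACTA2 at 1.11. Over all tested genes the median was -0.02, and 0.03, 0.05 and -0.15 by replicate. The summed level of the 6 contractile members was 143 CPM in the control and 190, 191 and 169 CPM in replicates 1, 2 and 3. MYL9, which is not confined to smooth muscle, made up most of each sum, at 95.3, 105, 108 and 129 CPM. Beside the mean MYOCD difference of 4.04, no tested contractile member had a log2 difference above 1.11 in any library. LMOD1 and MYH11, too low to be tested, went above that in replicates 1 and 2. LMOD1 had log2 differences of 1.78, 1.75 and -0.62 in replicates 1, 2 and 3, and MYH11 1.52, 1.34 and 0.74, from 10 and 6 control counts. With length and GC trends removed the median of the tested contractile members was 0.61, and none was called.

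**Figure D2:**
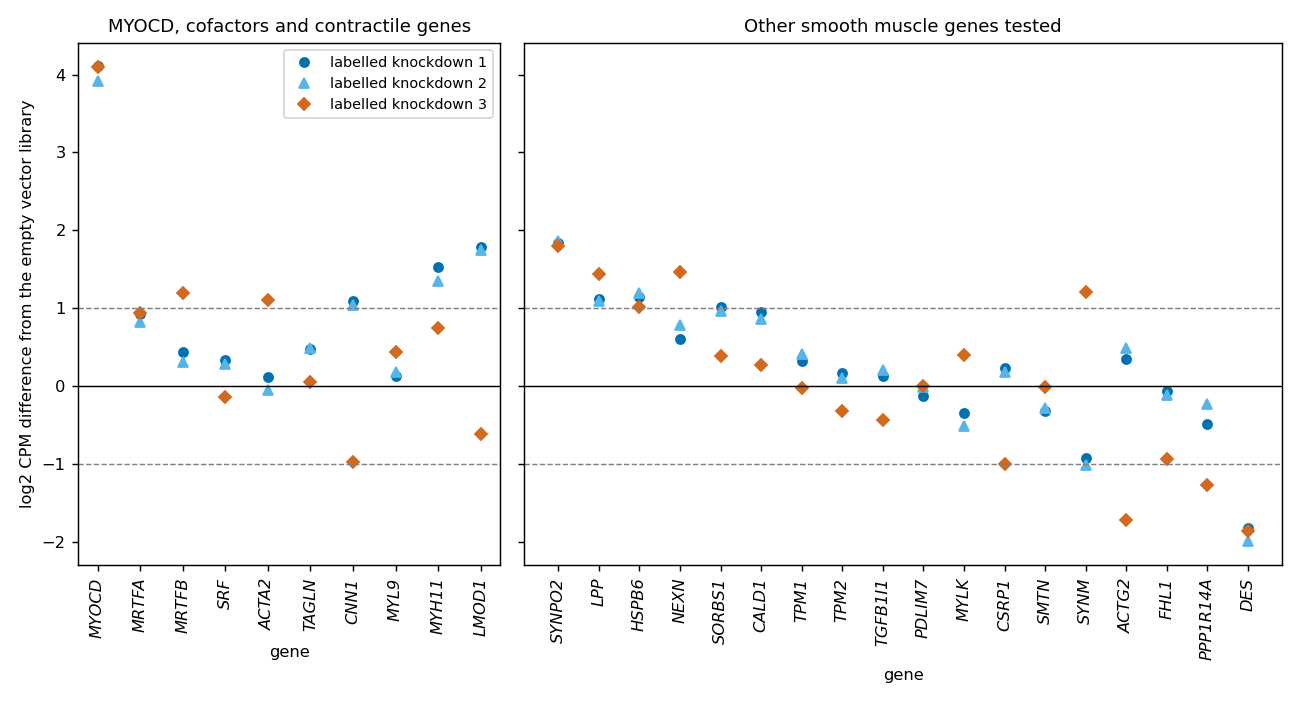
Log2 CPM differences from the control for the 10 genes (left) and for the 18 tested genes of a wider smooth muscle list (right), 1 symbol per labelled knockdown library, with dashed lines at 2-fold. MYOCD lies near 4 in all 3 libraries, and SYNPO2, LPP and HSPB6 above and DES below the dashed lines in each.

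A wider list of 23 smooth muscle genes had 18 tested, of which 3 were higher and 1 lower, with a median log2 difference of -0.04 over 3 libraries and of 0.19 without replicate 3. For this and each list below, the shares over all tested genes were 3.65% higher and 2.72% lower. Without replicate 3 these shares were 9.06% and 5.97%. SYNPO2, which encodes the actin-bundling protein synaptopodin-2, had 1.25 CPM in the control and 4.56, 4.66 and 4.45 CPM in replicates 1, 2 and 3. LPP had 131 CPM against 283, 278 and 353 CPM, and HSPB6, a small heat shock protein of muscle, 0.750 CPM against 1.72, 1.78 and 1.57 CPM. With length and GC trends removed, SYNPO2 and LPP were no longer called, and the mean log2 difference of LPP went from 1.21 to 0.27. HSPB6 was no longer called with a prior count of 5. DES, the intermediate filament desmin of muscle, went the other way, from 5.33 CPM in the control to 1.48, 1.31 and 1.44 CPM. The genes of the list with the highest CPM were not called: TPM1, a tropomyosin, had 863, 1084, 1151 and 849 CPM and CALD1, caldesmon, 316, 612, 574 and 383 CPM. Chosen after its values were seen, ACTG2, the enteric smooth muscle actin with an exact CArG box, had 2.83 CPM in the control and 3.63, 3.99 and 0.832 CPM, so that replicate 3 was lowest as for CNN1.

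Heart genes are the other known target group of myocardin. Of 18 cardiac and sarcomeric genes 10 were tested, 2 were higher and 0 lower, with a median log2 difference of 0.84 (0.64 without replicate 3). TTN, the giant sarcomeric spring titin, had 18.4 CPM in the control and 60.4, 67.8 and 80.7 CPM in replicates 1, 2 and 3. RYR2, the cardiac calcium release channel, had 25.1 CPM against 56.1, 55.0 and 95.7 CPM. Both have very long transcripts, and neither was called once length and GC trends were removed, when their mean log2 differences were 0.52 and 0.49. ANKRD1, a stretch-responsive cardiac repressor protein, was high in replicates 1 and 2 alone, at 22.7, 99.7, 96.7 and 19.0 CPM. The cardiac hormone gene NPPA, a classical myocardin target named after its values were seen, had 0 counts in the control and 2, 4 and 8 in replicates 1, 2 and 3, low throughout. ACTC1, the cardiac actin, was named after its values were seen: it had 2.46, 3.02, 3.77 and 17.6 CPM and so was highest in replicate 3, as ACTA2 was.

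**Figure D3:**
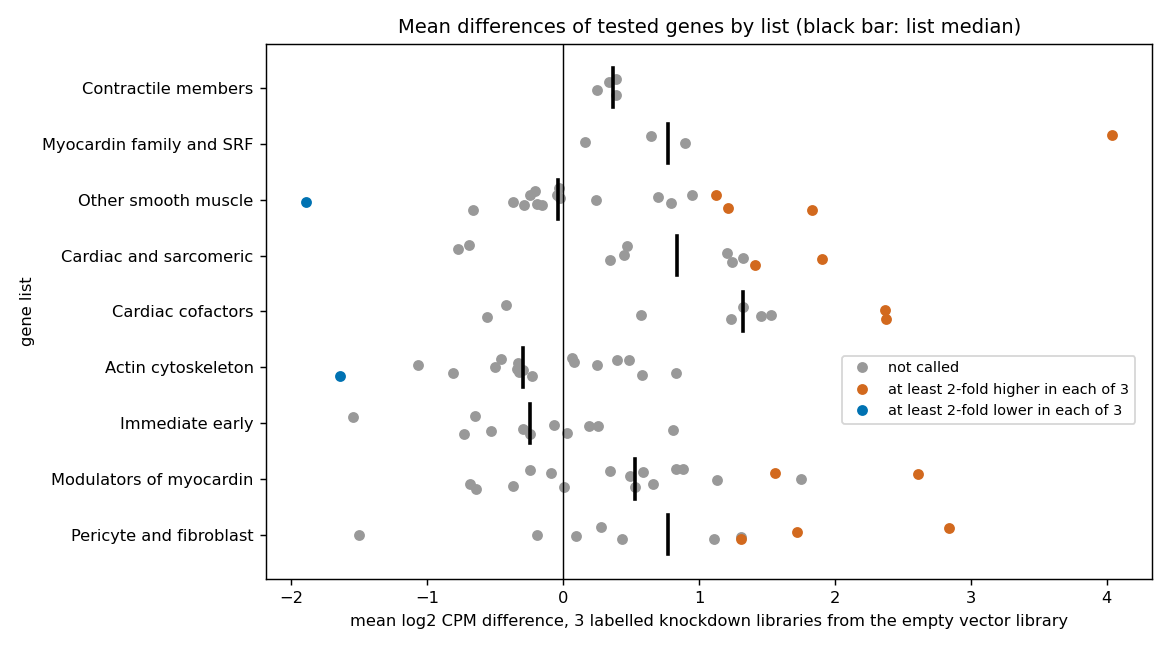
Mean log2 CPM differences of the tested genes in each list, 1 point per gene, with a black bar at the list's median and called genes in colour. MYOCD stands at 4.04, and the contractile members lie between 0.25 and 0.39.

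Factors that work with myocardin in the heart were listed separately. Of 12 such genes 9 were tested and 2 were higher, with 0 lower and a median log2 difference of 1.32. TBX5, a T-box factor of the developing heart, had 0.916 CPM in the control and 3.79, 4.02 and 7.87 CPM in replicates 1, 2 and 3. HAND1, a factor of heart and extraembryonic mesoderm, had 8.16 CPM against 33.7, 31.4 and 71.2 CPM. TBX5, like HSPB6 above, was under 1 CPM in the control and passed the abundance filter only through the labelled knockdown libraries. Without replicate 3, 4 genes of this list were higher, beside 9.06% of all genes tested then. MEF2D and MEF2A, of a family that binds a longer form of myocardin, had the highest CPM of the list in the mean of both groups: MEF2D had 58.1, 209, 198 and 61.6 CPM and MEF2A 44.9, 77.8, 74.9 and 51.2 CPM, so both stood out in replicates 1 and 2. Of 17 ternary complex factors and other modulators of myocardin, all were tested, 2 were higher and 0 lower, with a median of 0.53. These were FOXO4, a repressor of myocardin activity, with 23.8 CPM in the control and 74.7, 73.5 and 62.9 CPM, and PRRX1, a mesenchymal homeobox factor that helps SRF bind, with 1.75 CPM against 9.67, 9.57 and 14.0 CPM. EP300, a histone acetyltransferase that aids myocardin, and GSK3B, a kinase that restrains it, had the highest CPM of the list in the mean of both groups, with mean log2 differences of 1.13 ± 0.53 and 0.88 ± 0.42, and were not called.

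Of 17 listed cytoskeletal targets that SRF shares with MRTFA and MRTFB, all were tested, 0 were higher and 1 was lower. The shares over all tested genes were 3.65% and 2.72%, so counts this small do not set the list apart. The median log2 difference was -0.30, but -0.06 without replicate 3, since it was -0.09, -0.02 and -0.50 in replicates 1, 2 and 3. The lower gene was ACTG1, cytoplasmic gamma-actin, with 4613 CPM in the control and 1343, 1419 and 1697 CPM in replicates 1, 2 and 3. ACTB, cytoplasmic beta-actin, was also lower in each, at 18725 CPM against 9772, 10776 and 11455 CPM, without reaching 2-fold. Of 14 immediate early genes, which answer to ternary complex factors, 11 were tested and 0 were called, with a median of -0.25 (1 was higher without replicate 3). Among them MCL1, a survival gene, had 535, 453, 478 and 425 CPM, and ATF3, a stress-induced factor, 56.9, 165, 165 and 36.4 CPM. Across these 6 lists, 82 of 101 genes were tested, 9 were higher and 2 lower, beside the shares of 3.65% and 2.72% over all tested genes. The lists describe these libraries and were drawn up with earlier results known.

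Exact CArG boxes lay in promoter windows of 6 of 20 wider smooth muscle genes, 3 of 12 cardiac genes, 7 of 15 cytoskeletal genes and 2 of 10 immediate early genes that had a window. Of the 19 member and list genes with an exact box, 17 were tested, 1 was higher (LPP) and 1 lower (ACTG1). Over all tested genes with a window, 189 had an exact box, of which 6 (3.17%) were higher and 8 (4.23%) lower. Among all 11555 tested genes with a window, 406 (3.51%) were higher and 287 (2.48%) lower. The median log2 difference of genes with an exact box was 0.17, 0.15 and -0.21 in replicates 1, 2 and 3, against 0.03, 0.05 and -0.17 over all with a window.

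Among annotated neighbours within 500 kb of MYOCD, only ARHGAP44 and ELAC2 were abundant enough to be tested, and neither was called. Over all tested genes 3.65% were called higher and 2.72% lower. ARHGAP44, which begins 20.6 kb downstream on GENCODE 29, had 17.4 CPM in the control and 19.4, 19.4 and 11.2 CPM in replicates 1, 2 and 3. ELAC2, a tRNA-processing nuclease 223 kb downstream, had 103 CPM against 47.6, 49.7 and 68.7 CPM. Its log2 differences were -1.11, -1.05 and -0.59, so it passed 2-fold in replicates 1 and 2. The noncoding LINC00670, which ends 23.0 kb upstream, had 4, 24, 8 and 0 counts. On the opposite strand, MYOCD-AS1, within MYOCD, had 4, 4, 12 and 11 counts and ARHGAP44-AS1, which overlaps one end of it, 1, 8, 8 and 4, far fewer than MYOCD itself in the labelled knockdown libraries.

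**Figure D4:**
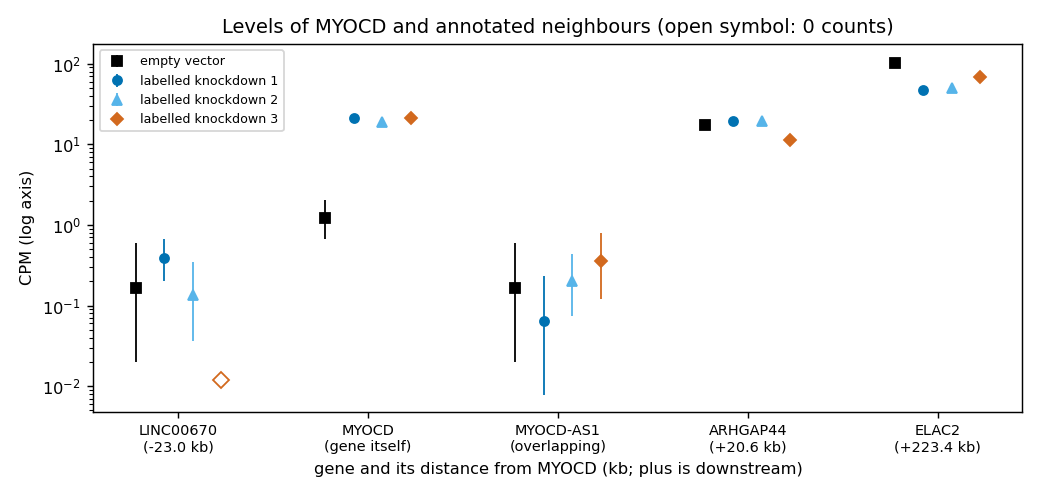
Levels of MYOCD and annotated neighbours in CPM on a log axis, 1 symbol per library with the 95% counting interval, ordered by position; an open symbol marks 0 counts. MYOCD differs between groups by 15.7-fold or more. ARHGAP44 stays between 11.2 and 19.4 CPM, and ELAC2 has 103 CPM in the control and 47.6 to 68.7 CPM in the labelled knockdown libraries.

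The genes most like MYOCD were found by the Euclidean distance over the 3 log2 differences. HAPLN1, a link protein of the hyaluronan matrix, was nearest at 0.889, with 1.54 CPM in the control and a mean of 18.9 ± 3.25 CPM (SD, n = 3) in the other group. SCN3B, a sodium channel beta subunit, followed at 1.45, then CALCR, the calcitonin receptor, at 1.66, LIX1 at 1.82 and TNXB, the matrix protein tenascin-X, at 1.90. All distances rest on 3 libraries and 1 shared control. In that control SCN3B, CALCR and TNXB had 0.625, 0.250 and 0.167 CPM, from 15, 6 and 4 counts. They passed the abundance filter only through the labelled knockdown libraries, so their distances depend on a control level near the floor. HAPLN1 was nearly even across replicates, with differences of 3.38, 3.47 and 3.83, whereas SCN3B was lower in replicate 3 (3.15) than in replicates 1 and 2 (4.84 and 4.74). TNXB has a near-identical pseudogene copy, so its count is uncertain.

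Markers of other cell types that carry contractile genes were read beside these values. Of 12 pericyte and fibroblast markers 10 were tested and 3 were higher, with 0 lower: the receptor gene PDGFRB had 34.1 CPM in the control and 94.6, 86.6 and 73.6 CPM, the pericyte gene RGS5 156 CPM against 526, 547 and 479 CPM, and the matrix gene POSTN 3.50 CPM against 49.5, 44.2 and 7.36 CPM. Over all tested genes 3.65% were higher and 2.72% lower. PDGFRB was not called with length and GC trends removed. Without replicate 3 there were 5 markers higher and 1 lower, beside 9.06% and 5.97% of all genes tested then. Their summed level was 682 CPM in the control and 1265, 1264 and 935 CPM in replicates 1, 2 and 3. DCN, a defining fibroblast gene named after its values were seen, had 0 counts in the control and in replicates 1 and 3, and 2 counts in replicate 2. The sum of 5 endothelial markers was 80.4 CPM against 185, 182 and 136 CPM, with 0 of 4 tested called and 2 higher without replicate 3. The 8 skeletal muscle markers summed to at most 3.45 CPM in any library. MYOD1, the master regulator of that lineage, also named after its values were seen, had 2 counts in the control and 0 in every other library, and 0 of 2 tested markers were called. The 10 embryonal carcinoma markers summed to 7157 CPM in the control and 7284, 7520 and 4302 CPM in replicates 1, 2 and 3, with 1 called lower (DNMT3B, a DNA methyltransferase), which was not called with total counts. Whether these markers bear on the MYOCD difference was not tested.

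Count tests were used for numbers of calls only, because the control was a single library. The edgeR quasi-likelihood test called 0 of 26029 genes at an adjusted p of 0.05, while 3023 genes had an unadjusted p under 0.05. DESeq2 called 271 of 15725 genes (1.72%). Without replicate 3 edgeR called 11177 of 25016 genes, 5876 higher and 5301 lower. In that fit the spread came from the nearly alike replicates 1 and 2 alone, and the control library was assumed to vary as they do.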

How the data were processed

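RNA was sequenced from 4 libraries. The authors deposited raw counts per gene, 1 table per library with 62696 versioned Ensembl IDs and symbols. STAR 2.7.11b, featureCounts 2.0.6, DESeq2 and hg38 (GRCh38) are named in the submitters' processing notes, without roles. The annotation release and strand setting are not given in the sources used here. Per the file headers, count columns are named for a LacZ control and GKAP_KIF27 sets, unlike the sample labels. Samples were taken from the series record. Between 65.2% and 68.0% of nonzero counts were even, so 95% intervals (exact Poisson, and Clopper-Pearson for ratios) used counts divided by 2. They cover counting error only. Totals were 25181737 (empty vector), 62904698, 61627449 and 28552070 counts, and 3 counts equal 0.125, 0.0482, 0.0503 and 0.0960 CPM.

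Counts were scaled by TMM (edgeR 4.0.16, R 4.3.3), with a prior count of 2. Genes with a mean of group mean CPMs of at least 1 were tested. No p was given per member, since the contrast chose them. edgeR's quasi-likelihood test and DESeq2 1.42.0 with Benjamini-Hochberg adjustment gave numbers of calls, and the calling and tests were checked on simulated data. Positions and exon lengths came from GENCODE 29 (GRCh38), which matched 58269 IDs and all 10 members, and promoters from RefSeq on GRCh38.p14. Alternatives were other scalings, prior counts, abundance filters and thresholds, leaving out each labelled knockdown library, and removal of length and GC trends. Named genes were the members, HYDIN2, from each of the 6 lists up to 5 called genes in each direction and the 2 with the highest mean CPM over groups, called marker genes, the 5 genes nearest to MYOCD, and its neighbours; others are said to be chosen after their values were seen. Members and lists were chosen with earlier results of these data known.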

Additional observations from a re-analysis of the deposited data

How the results depend on the processing

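MYOCD, chosen for its rise, was called higher in all 13 alternatives, and no member was called lower in any of them. Its mean log2 difference was 3.44 with length and GC trends removed. The number of members called higher was 2 at a 1.5-fold threshold, and 1 to 2 when 1 labelled knockdown library was left out (2 without replicate 3, which added CNN1). The median of the tested contractile members was 0.46 with total counts, 0.61 with trends removed and 0.27 to 0.28 with 1 library left out. ACTA2 changed sign without replicate 3, and the cause was not tested. With total counts, which shifted the median of all genes by 0.09, 734 genes were higher and 312 lower, against 580 and 432.

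Over all genes, the numbers higher and lower were 378 and 282 with trends removed, 1605 and 1035 at a mean CPM of at least 0.1, 377 and 254 at 5, 1590 and 1526 at 1.5-fold, and 1356 and 1074 for 2-fold in the mean. Leaving out 1 labelled knockdown library gave 578 to 1425 higher and 517 to 939 lower, the highest without replicate 3. Calls in the 6 lists went from 11 to 7 with trends removed, and at a mean CPM of at least 5 SYNPO2, HSPB6, DES and TBX5 were not tested. DESeq2 called 271 genes where edgeR called 0, and edgeR without 1 library, an alternative added after seeing the data, called 17 to 11177. The list alternatives were added then too. The causes of these differences were not tested.

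No paired analysis was possible because the control is a single library that carries no number. With 29 control counts, the MYOCD ratio is known only to the intervals given, and MYH11 and LMOD1 are limited by depth. With 1 control library, its own deviation cannot be told apart from the group difference.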
